A study of Mus musculus with 12 samples.

Results

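High and low cells of the mutant kidney were set against each other by RNA sequencing. The comparison rests on 2 libraries titled mutant high expression and 4 titled mutant low expression, chosen by their titles alone, out of 12 libraries in the series. The remaining 6, titled control low (4) and control high (2), entered the same model. They serve only to ask where the mutant difference departs from the control one. All 12 came from mouse kidney at postnatal day 0 and from cells sorted by flow cytometry as expressing Six2, with a R26R-tdTomato reporter in control and mutant alike. What signal high and low refer to is not stated. The labels define no mutation, allele, Cre driver, strain or sex. Eed, a core subunit of Polycomb repressive complex 2 (PRC2), is named only in the title of the series. The source is labelled as fetal although the stage is P0. The labels name no animals. Descriptions of mutant high and low replicate 1 share the number 5 and those of both replicates 2 the number 7, without saying what it marks, so every p-value below measures the spread among libraries, part or all of which may be technical.

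As background, the nephron of the kidney grows from a cap of mesenchymal progenitors that express Six2 and its partners. These cells either renew themselves or turn on Wnt4, pass through an epithelial vesicle and mature into podocytes, proximal tubule, loop of Henle and distal tubule, while the ureteric bud gives rise to the collecting duct. Polycomb complexes PRC2 and PRC1 mark and compact the chromatin of silent developmental genes, among them the Hox genes. The R26R-tdTomato reporter, once recombined by a Cre, stays on in all descendants of the recombined cell.

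The unit is the estimated fragment count per transcript, summed here over transcripts that overlap on one strand to give loci, and levels are fragments scaled to a common library size by TMM and given as CPM. Library totals were 9307989 and 7779040 fragments in mutant high cells and 5948488 to 12317879 in mutant low cells. Chromosome Y carried 0 and 2101 fragments in mutant high replicates 1 and 2, and 1, 934, 1434 and 1615 in the 4 mutant low replicates, so the libraries are not all of one sex. Across the 6 mutant libraries the first principal component held 72.1% of the variance and separated high from low cells. Spearman's rho across loci, a description over features that are not independent, was 0.964 between the mutant high libraries, 0.946 to 0.979 among the mutant low libraries and 0.843 to 0.868 between high and low. Some genes that nearly all cells use were listed at or near 0: Gapdh at 0 fragments in all 12 libraries and Pgk1 at 0 to 4. A gene listed at 0 is therefore not shown to be silent.

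The gene of the series title was low in both mutant populations, with levels that overlapped. Eed stood at 7.27, 11.1, 5.44 and 9.91 CPM in the mutant low libraries and 4.73 and 7.26 CPM in the mutant high libraries. Control libraries held 14.4, 13.04, 15.5 and 13.4 CPM in low and 8.74 and 9.07 CPM in high cells. Both mutant high libraries lie below every control library, and the 4 mutant low libraries lie below the 4 control low ones. A locus sum does not tell whether the message is intact, so these values check the labels only in part. Between mutant high and mutant low cells Eed did not pass the test (log2 change -0.49 ± 0.33 SE, edgeR adjusted p = 0.277). Ezh2, the methyltransferase of PRC2 (log2 change -0.74 ± 0.31 SE, edgeR adjusted p = 0.0834), and Suz12, another core subunit (log2 change -0.58 ± 0.31 SE, edgeR adjusted p = 0.168), did not pass either. Six2, by which the cells were sorted, was present in all 6 libraries and was lower, not higher, in the libraries titled high.

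High cells of the mutant kidney had less of the progenitor programme and far more of the mature tubule programme than low cells. Of 13749 loci tested, 2613 (19.01%) were called higher and 1814 (13.2%) lower at an adjusted p under 0.05 in edgeR's quasi-likelihood test. Rises were steeper than falls, since 592 loci rose by at least 4 (log2) and 16 fell by as much. The median log2 fold change was 2.23 among loci called higher and -1.27 among those called lower, against -0.03 over all loci. High libraries lay above all 4 low ones at 26.7% and below them at 23.3% of loci, and 4427 loci (32.2%) were called in either direction. The loci that rose by at least 4 had a median level of 0.271 CPM in mutant low and 14.5 CPM in mutant high cells. In bulk RNA, fewer cells of one type and less RNA per cell cannot be told apart, and this holds for each gene group described here. The plot of level against change places the genes described first.

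**Figure D1:**
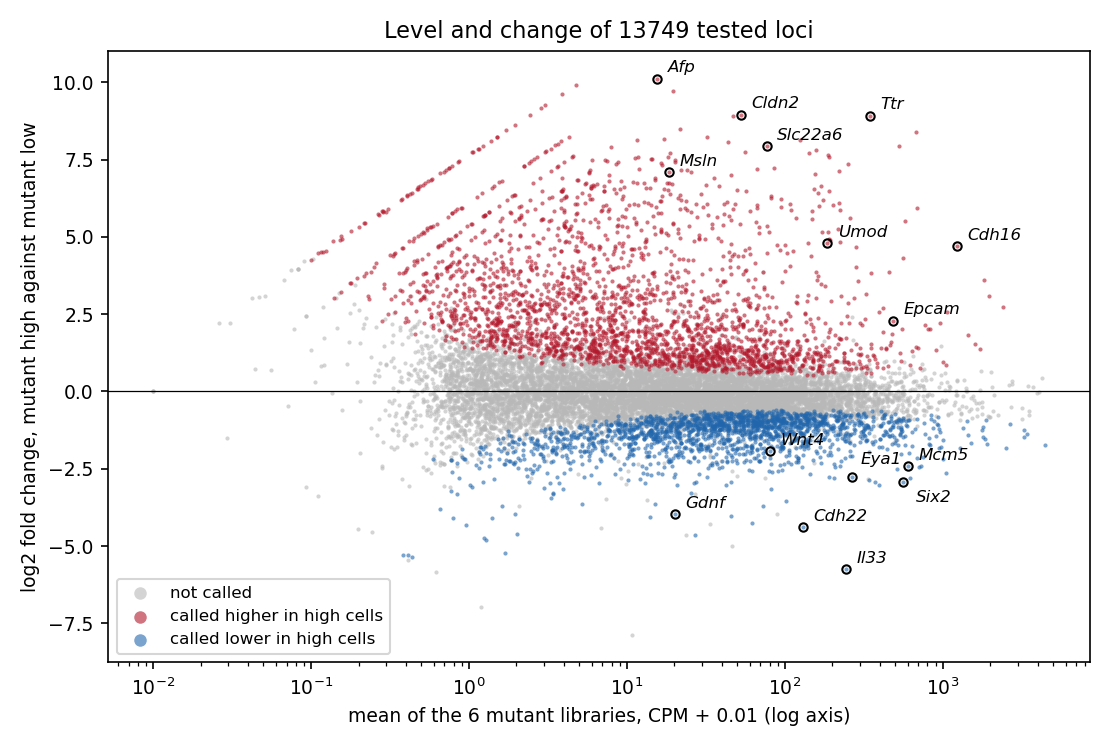
Each point is 1 of 13749 tested loci, with its mean over the 6 mutant libraries in CPM + 0.01 on a log axis and its log2 fold change in mutant high against mutant low cells. Red points are the 2613 loci called higher and blue points the 1814 called lower in high cells, grey points were not called, and the rises reach further from 0 than the falls.

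Most nephron progenitor genes fell. Of 28 listed progenitor genes, all of them tested, 18 were called lower and 1 higher in mutant high cells, against 13.2% lower and 19.01% higher over all loci tested, and the median log2 fold change was -1.68. In 22 of the 28 both high libraries lay below all low ones. Their summed level was 3419 to 4496 CPM in the 4 mutant low libraries and 1088 and 1241 CPM in the 2 mutant high libraries. Six2, the homeobox factor that maintains the progenitor (mm9 chromosome 17, 86083607 to 86087594, minus strand), stood at 693, 743, 775 and 960.0 CPM in the mutant low libraries and 97.2 and 113 CPM in the mutant high libraries. The 2 groups did not overlap, with a mean of 793 ± 116 CPM (SD, n = 4) in mutant low and 105 ± 11.2 CPM (SD, n = 2) in mutant high cells (log2 change -2.91 ± 0.44 SE, edgeR adjusted p = 0.000143). Its partner Eya1, a transcriptional coactivator and phosphatase, went the same way, from 369, 377, 352 and 397 CPM in low to 46.6 and 64.2 CPM in high libraries (log2 change -2.75 ± 0.56 SE, edgeR adjusted p = 0.00211). Gdnf, the ligand by which progenitors attract the ureteric bud, showed the deepest fall of the list, at 28.2, 26.2, 32.9 and 30.0 CPM in mutant low and 1.55 and 2.22 CPM in mutant high libraries (log2 change -3.96 ± 0.40 SE, edgeR adjusted p = 3.72e-06). Rspo1, a secreted amplifier of Wnt signals, fell from 390.4, 443, 600.3 and 371 to 94.9 and 139 CPM (log2 change -1.95 ± 0.39 SE, edgeR adjusted p = 0.0016).

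Not all progenitor genes were called lower. Among those without a call, Pax2 and Itga8 still had both high libraries below all low ones. Cited1, which marks the least committed progenitors, was low in both mutant populations, at 5.20, 6.55, 1.22 and 2.76 CPM in mutant low and 3.86 and 4.68 CPM in mutant high libraries (log2 change 0.14 ± 0.49 SE, edgeR adjusted p = 0.857). Osr1, chosen for mention after its values were seen, was also flat, at 3.93, 4.88, 1.33 and 2.92 CPM in low and 3.38 and 2.46 CPM in high libraries (log2 change -0.14 ± 0.62 SE, edgeR adjusted p = 0.889). Low and high libraries overlap for both genes, so Cited1 does not separate the populations although Six2 does. Pax2, a factor of progenitors and bud alike, was at 4.503, 5.94, 0.9999 and 2.35 CPM in mutant low and 0.773 and 0.123 CPM in mutant high libraries (log2 change -2.80 ± 1.72 SE, edgeR adjusted p = 0.247). It passed the test without control low replicate 4 (0.0169), with the edgeR adjusted p in brackets here and below. The most abundant members without a call were Pla2g7, a secreted phospholipase (-0.80, edgeR adjusted p = 0.168), and the integrin Itga8 (-2.005, edgeR adjusted p = 0.0754), which passed without control low replicate 3 (0.0476) and control low replicate 4 (0.0416). The single member called higher was the growth factor Fgf9, at 20.0, 30.8, 24.3 and 25.2 CPM in mutant low and 42.3 and 42.3 CPM in mutant high libraries (log2 change 0.76 ± 0.24 SE, edgeR adjusted p = 0.027).

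Some of these calls lean on single libraries. Wt1, the progenitor and podocyte factor, was at 63.7, 57.3, 35.2 and 58.1 CPM in mutant low and 22.6 and 11.1 CPM in mutant high libraries (log2 change -1.67 ± 0.38 SE, edgeR adjusted p = 0.00394). Its call was lost without mutant high replicate 2 (0.0668). Bmp7, a survival factor of progenitors, was called lower (log2 change -1.18 ± 0.39 SE, edgeR adjusted p = 0.032) and lost the call without mutant high replicate 1 (0.119), mutant high replicate 2 (0.165), mutant low replicate 3 (0.0697) and mutant low replicate 4 (0.0593). Fgf9 lost it without mutant high replicate 1 (0.121), mutant high replicate 2 (0.114), mutant low replicate 1 (0.0826) and mutant low replicate 4 (0.0548). With 1 high library left out the other is assumed to vary like the rest of the groups, and the list then had 12 members called lower in either case.

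Of 23 early nephron genes tested, 5 were called lower (21.7%) and 5 higher (21.7%), beside 13.2% lower and 19.01% higher over all loci, with a median log2 fold change of -0.20. The counts were 3 lower and 2 higher without mutant high replicate 1. There were 3 lower without mutant low replicate 1 and 3 higher without mutant low replicate 4. Wnt4, the signal that turns progenitors into epithelium, stood at 145, 87.2, 70.8 and 122 CPM in the mutant low libraries and 30.7 and 25.4 CPM in the mutant high libraries (log2 change -1.92 ± 0.31 SE, edgeR adjusted p = 0.000255). Cadherin 4 (Cdh4), of the renal vesicle, went from 566, 589, 1573 and 971 to 153 and 264 CPM (log2 change -2.15 ± 0.45 SE, edgeR adjusted p = 0.00202). The receptor Notch2 went from 184, 135, 191 and 155 to 45.3 and 22.6 CPM (log2 change -2.29 ± 0.33 SE, edgeR adjusted p = 9.72e-05). All 3 had every high library below every low one. Higher was Papss2, which makes the sulfate donor, at 36.4, 37.0, 65.5 and 33.9 CPM in mutant low and 100.4 and 126 CPM in mutant high libraries (log2 change 1.39 ± 0.29 SE, edgeR adjusted p = 0.00214). The zinc finger factor Mecom was higher too (log2 change 1.24 ± 0.24 SE, edgeR adjusted p = 0.00102). Lhx1 (log2 change -0.88 ± 0.42 SE, edgeR adjusted p = 0.127) and Pax8 (log2 change -0.89 ± 0.40 SE, edgeR adjusted p = 0.104), which act in the vesicle, were not called, and Pax8 passed the test without mutant low replicate 2 (0.0349).

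Proximal tubule genes rose together. All 40 listed genes were tested and all 40 were called higher in mutant high cells, beside 19.01% of all loci. Their log2 fold changes were 2.32 to 8.95, with a median of 6.01. Summed, the list took 147 to 239 CPM in the mutant low libraries and 9666 and 10181 CPM in the mutant high libraries. Hnf4a, the nuclear receptor that directs proximal tubule genes, stood at 1.27, 0.305, 0.667 and 0.0812 CPM in the mutant low libraries and 41.7 and 36.9 CPM in the mutant high libraries (log2 change 6.09 ± 0.69 SE, edgeR adjusted p = 3.09e-05). The basolateral organic anion transporter Slc22a6 rose from 1.96, 1.52, 0.333 and 0.162 to 218 and 240.0 CPM (log2 change 7.92 ± 0.76 SE, edgeR adjusted p = 1.1e-05). The endocytic receptor megalin, Lrp2, rose from 6.93, 3.66, 3.67 and 3.33 to 241 and 305 CPM (log2 change 5.95 ± 0.50 SE, edgeR adjusted p = 1.14e-06). No low library came near a high one for these 3 genes.

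The ion pump regulator Fxyd2 was among the most abundant members, at 15.7, 0.762, 7.11 and 2.19 CPM in mutant low and 2211 and 933 CPM in mutant high libraries (log2 change 7.92 ± 1.41 SE, edgeR adjusted p = 0.00222). The transport protein transthyretin, Ttr, was at 4.39, 1.68, 0.889 and 1.54 CPM in low and 1053 and 1007 CPM in high libraries (log2 change 8.92 ± 1.18 SE, edgeR adjusted p = 0.000312). Claudin 2 (Cldn2), the channel-forming junction protein of the proximal tubule, had the largest fold of the list, from 0.808, 0, 0.222 and 0.162 to 169 and 145 CPM (log2 change 8.95 ± 0.56 SE, edgeR adjusted p = 1.06e-07). Gatm, which makes the creatine precursor, was among the better expressed in low cells already, at 21.8, 24.1, 23.4 and 18.6 CPM, and reached 494 and 768 CPM in high cells (log2 change 4.84 ± 0.43 SE, edgeR adjusted p = 1.17e-06). Slc3a1, the subunit of the cystine transporter, was listed at 48.7, 39.8, 36.7 and 44.2 CPM in low cells and 531 and 376 CPM in high cells (log2 change 3.42 ± 0.38 SE, edgeR adjusted p = 9.36e-06). Prepl, a locus on the other strand, held 56.5% as many fragments over the mutant libraries. Without strand the 2 cannot be told apart, so the level in low cells may not be that of Slc3a1 alone.

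Cldn2 and Ttr were also among the 15 largest rises of all named loci with at least 5 CPM in high cells and groups that do not overlap. Others of these follow. Afp, the fetal albumin homologue (mm9 chromosome 5, 90919739 to 90937933, plus strand), had 1 fragment in the 4 mutant low libraries together and 531 and 340 fragments in the high libraries, or 51.3 and 41.8 CPM, a ratio of 1722 with a counting interval of 308 to 68093. Prodh2, of hydroxyproline breakdown, went from 0, 0.152, 0 and 0.0812 to 57.5 and 59.2 CPM (log2 change 9.71 ± 0.62 SE, edgeR adjusted p = 1.06e-07). Sectm1b went from 0.231, 0.305, 0 and 0.162 to 65.9 and 64.2 CPM (log2 change 8.50 ± 0.50 SE, edgeR adjusted p = 7.91e-08). The calcium binder S100g rose unevenly, to 21.2 and 258 CPM in the 2 high libraries from 0.693, 0.152, 0.222 and 0.0812 CPM (log2 change 8.90 ± 1.003 SE, edgeR adjusted p = 5.37e-05). AC100212.9, Akr1c19, Tfec, Acmsd, Ugt2b5, the keratin Krt17 and the chemokine Ccl20 were listed at 0 in all 4 mutant low libraries. Taking 3 fragments as the floor of the group, high cells held at least 177-fold, 147-fold, 109-fold, 101-fold, 72.5-fold, 83.7-fold and 67.9-fold higher levels of them, in that order. All 7 were called.

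Promoters were read for the words of 2 factors of the proximal tubule, HNF1 and HNF4, of the Six2 family and of TCF/LEF, the nuclear effectors of Wnt. The windows are the RefSeq promoters of build GRCm38.p6, from 250 bases before to 50 after each start site, searched on both strands. The HNF1 word GTTAAT, then any base, then ATTAA lay in 0.0609% of all 32851 promoters and in 0.230% of the promoters of genes called higher, 6 genes in all. For rises of at least 4 (log2) the share was 0.990%, 5 of 505 promoters, and no promoter of a gene called lower held it. Those 5 are shown because they carry the word and rose together, with the word in capitals, 5′ to 3′ along the strand of the gene and wholly before the start site.
Pkhd1: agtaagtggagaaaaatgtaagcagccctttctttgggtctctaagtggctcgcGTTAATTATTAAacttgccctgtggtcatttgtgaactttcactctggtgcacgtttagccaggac
Gc: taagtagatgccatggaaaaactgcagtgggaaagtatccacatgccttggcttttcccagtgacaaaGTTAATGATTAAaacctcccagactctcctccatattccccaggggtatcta
Prodh2: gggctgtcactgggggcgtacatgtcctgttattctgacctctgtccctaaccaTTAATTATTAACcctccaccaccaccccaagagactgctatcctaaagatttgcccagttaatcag
Slc10a2: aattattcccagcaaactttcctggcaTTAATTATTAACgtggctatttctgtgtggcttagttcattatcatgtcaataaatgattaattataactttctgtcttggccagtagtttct
Cltrn: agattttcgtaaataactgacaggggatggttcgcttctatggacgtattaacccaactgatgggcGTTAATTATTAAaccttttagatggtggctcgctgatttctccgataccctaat
Slc3a1: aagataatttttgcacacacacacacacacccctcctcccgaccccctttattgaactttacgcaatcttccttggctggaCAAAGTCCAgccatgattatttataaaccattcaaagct
The last of the 6 sequences holds the HNF4 word CAAAGTCCA in capitals. The stretches lie at chr1:20618071-20618190, minus strand (Pkhd1), chr5:89457899-89458018, minus strand (Gc), chr7:30493474-30493593, plus strand (Prodh2), chr8:5105418-5105537, minus strand (Slc10a2), chrX:164090067-164090186, plus strand (Cltrn) and chr17:85028227-85028346, plus strand (Slc3a1), all in GRCm38.p6. Their words begin 79, 52, 130, 223, 54 and 39 bases before the start site. In Prodh2 and Slc10a2 the word is read on the opposite strand and appears as its reverse complement.

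The genes behind these sequences were chosen after their values were seen, apart from Prodh2. The 5 with the HNF1 word were taken from the rises of at least 4 (log2), so their rise was fixed by that choice. It says nothing about the word, and their values are given as description. Pkhd1, the ciliary protein of recessive polycystic kidney disease, went from 1.39, 0.305, 0.667 and 0.487 to 39.999 and 25.6 CPM (log2 change 5.49 ± 0.56 SE, edgeR adjusted p = 5.93e-06). Gc, the vitamin D carrier, went from 0.115, 0.152, 0.111 and 0.244 to 23.7 and 43.4 CPM (log2 change 7.56 ± 0.48 SE, edgeR adjusted p = 9.47e-08). The bile acid transporter Slc10a2 (log2 change 6.82 ± 0.50 SE, edgeR adjusted p = 2.5e-07) and Cltrn, a partner of amino acid transporters in the brush border (log2 change 6.57 ± 0.80 SE, edgeR adjusted p = 4.56e-05), did likewise. Of the other 3 tested genes with the HNF1 word, Zfp871 (log2 change -0.70 ± 0.29 SE, edgeR adjusted p = 0.081) and Rab3il1 (log2 change 0.75 ± 0.39 SE, edgeR adjusted p = 0.163) were not called, and Zfp871 passed without mutant low replicate 3 (0.0381). The third, Mia2, was high in 1 of the 2 high libraries only, at 53.2 and 3.82 CPM against 3.46, 3.96, 9.22 and 2.76 CPM (log2 change 2.56 ± 0.73 SE, edgeR adjusted p = 0.0189). Without mutant high replicate 1 its log2 change was -0.36 (edgeR adjusted p = 0.751). The call was also lost without mutant low replicate 4 (edgeR adjusted p = 0.0501). The HNF4 word was in 0.475% of all promoters, 0.959% of those of genes called higher and 0.114% of those called lower. It was in 4.76% (2) of the 42 promoters matched to the proximal tubule list, which belong to 33 of its genes. The TCF/LEF word was in as many of those 42, and the HNF1 word in none. The words TCAGGTTTC for the Six2 family and ATCAAAG for TCF/LEF lay in 0.499% and 2.76% of promoters of genes called higher and in 0.511% and 2.50% of those called lower. They lay in 0.429% and 3.73% of all promoters and in 0.391% and 2.51% of promoters of tested genes. For rises of at least 4 (log2) the shares were 0.198% and 4.75%, and for falls of at least 2 (log2) 0.490% each, or 1 of 204 promoters. The 28 promoters matched to the progenitor list belong to only 17 of its genes. None of them held any of the 4 words in this window. These shares are descriptions of letters, with no test.

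Most loop of Henle and distal tubule genes rose. Of 21 tested, 18 were called higher (85.7%) and none lower, beside 19.01% and 13.2% over all loci. The median log2 fold change was 4.96, and the summed level was 62.2 to 162 CPM in mutant low and 2606 and 3029 CPM in mutant high libraries. Umod, the uromodulin of the thick ascending limb, stood at 42.9, 3.35, 16.4 and 11.3 CPM in the mutant low libraries and 536 and 503 CPM in the mutant high libraries (log2 change 4.81 ± 0.95 SE, edgeR adjusted p = 0.00363). Calb1, the calcium binder of the distal convoluted tubule, rose from 6.70, 4.88, 4.22 and 3.41 to 234 and 665 CPM (log2 change 6.55 ± 0.52 SE, edgeR adjusted p = 7.35e-07). Sostdc1, a secreted Bmp antagonist, rose from 19.2, 2.59, 26.7 and 15.3 to 516 and 716 CPM (log2 change 5.26 ± 0.70 SE, edgeR adjusted p = 0.000155). High and low libraries are far apart in all 3. The 3 members without a call were Ppp1r1a (0.02, edgeR adjusted p = 0.985), the magnesium channel Trpm6 (0.37, edgeR adjusted p = 0.538) and Wfdc2 (1.65, edgeR adjusted p = 0.0832), named after its values were seen, which passed without control low replicate 2 (0.0493).

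**Figure D2:**
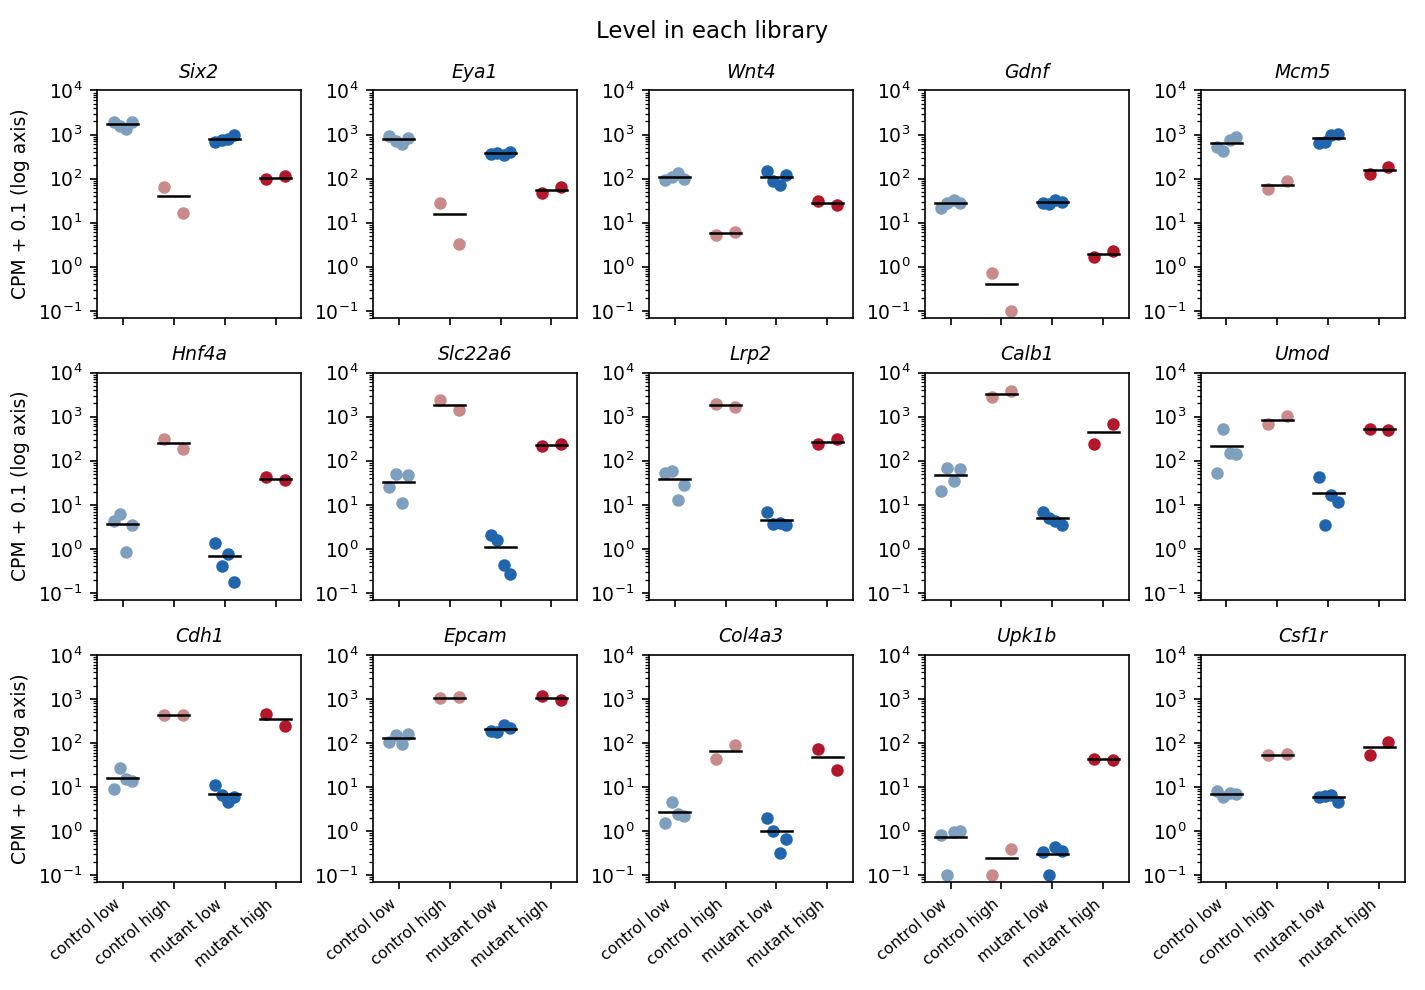
Each panel gives 1 gene, with the level in each of the 12 libraries as a point in CPM + 0.1 on a log axis and the group mean as a bar, in the order control low (4), control high (2), mutant low (4), mutant high (2). In the mutant, Six2, Eya1, Wnt4, Gdnf and Mcm5 are lower in both high libraries than in every low one, the tubule and epithelial genes are higher, and the 2 mutant high libraries disagree for Col4a3 at 72.2 and 23.5 CPM.

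Podocyte genes did not move as one. Of 21 tested, 9 were called higher (42.9%), 2 lower (9.52%) and 10 not, and the median log2 fold change was 0.04. Over all loci 19.01% were higher and 13.2% lower. Col4a3, of the mature glomerular basement membrane, was at 1.85, 0.914, 0.222 and 0.568 CPM in mutant low and 72.2 and 23.5 CPM in mutant high libraries (log2 change 5.76 ± 0.63 SE, edgeR adjusted p = 1.54e-05). The 2 high libraries differ from each other, and both lie above all 4 low ones. Npnt, a matrix ligand that ureteric epithelium also makes, rose from 106, 71.0, 94.9 and 61.4 to 1504 and 912 CPM (log2 change 3.86 ± 0.28 SE, edgeR adjusted p = 2.28e-07). Podxl, the podocyte surface sialomucin, was called higher (log2 change 1.81 ± 0.50 SE, edgeR adjusted p = 0.0124) but stood at 51.1 and 10.3 CPM in the high libraries and 13.5, 7.77, 4.9995 and 8.69 CPM in the low ones, which overlap. It lost the call without mutant high replicate 1 (0.802). Lower were the transcription factors Foxc2, from 36.7, 34.3, 63.0 and 54.2 to 14.4 and 7.38 CPM (log2 change -2.11 ± 0.40 SE, edgeR adjusted p = 0.00098), and Lmx1b (log2 change -2.52 ± 0.63 SE, edgeR adjusted p = 0.00807), the latter not called without mutant high replicate 1 (0.0789). Vegfa (-0.28, edgeR adjusted p = 0.413) and Cdkn1c (0.87, edgeR adjusted p = 0.0533) were the most abundant members without a call. Nphs1 held 1 to 5 fragments in mutant low and 25 and 8 in mutant high libraries and was left out by the filter.

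Epithelial junction and keratin genes rose without exception among those tested: 23 of 23 were called higher, beside 19.01% of all loci. The median log2 fold change was 3.85. Cdh1, E-cadherin of adherens junctions, stood at 10.97, 6.55, 4.56 and 5.68 CPM in the mutant low libraries and 443 and 238 CPM in the mutant high libraries (log2 change 5.62 ± 0.42 SE, edgeR adjusted p = 4.17e-07). Kidney cadherin Cdh16 reached 4231 and 2596 CPM from 181, 84.6, 140.0 and 116 CPM (log2 change 4.71 ± 0.47 SE, edgeR adjusted p = 4.03e-06), the highest level of the list. Epcam, the epithelial adhesion molecule, was already at 187, 176, 258 and 222 CPM in low cells and stood at 1136 and 924 CPM in high cells (log2 change 2.29 ± 0.26 SE, edgeR adjusted p = 1.25e-05). The claudins Cldn3 (log2 change 3.85 ± 0.59 SE, edgeR adjusted p = 0.000432) and Cldn7 (log2 change 3.03 ± 0.25 SE, edgeR adjusted p = 6.96e-07) belong to tight junctions and were likewise present in low cells, at 72.5, 34.3, 98.9 and 52.4 CPM and 86.2, 65.7, 94.99 and 74.1 CPM.

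**Figure D3:**
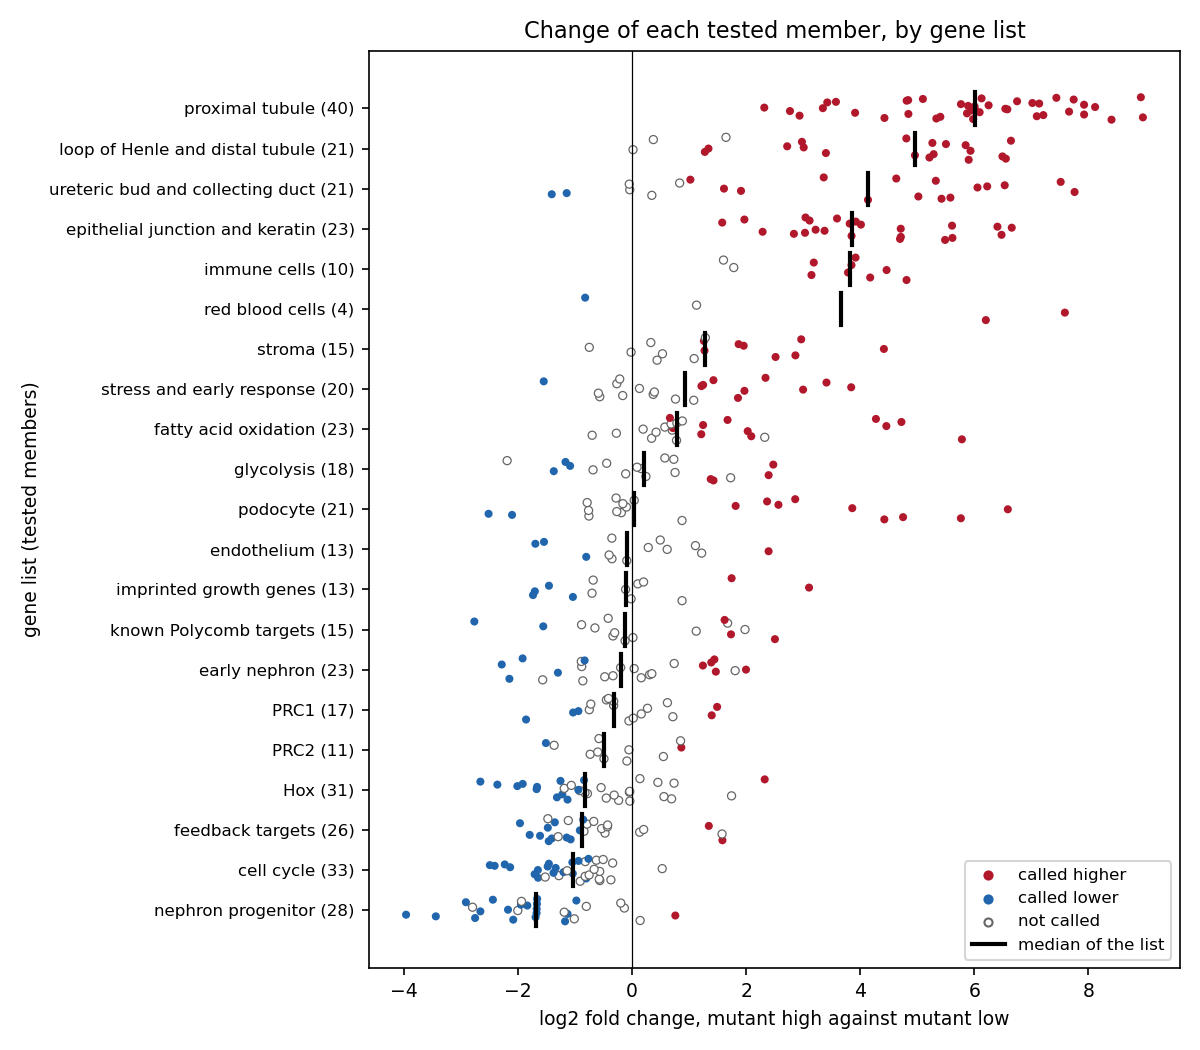
Each point is 1 tested gene of a list, at its log2 fold change in mutant high against mutant low cells, filled red where called higher, filled blue where called lower and open where not called, with a bar at the list's median and the number tested in brackets. Proximal tubule (40 of 40 called higher) and epithelial genes (23 of 23) lie wholly to the right of 0, and nephron progenitor genes (18 of 28 called lower) mostly to the left.

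Most ureteric bud and collecting duct genes rose. Of 21 tested, 15 were called higher (71.4%) and 2 lower (9.52%), beside 19.01% and 13.2% over all loci. The median log2 fold change was 4.13. Scnn1b, a subunit of the epithelial sodium channel, rose from 8.77, 2.44, 3.11 and 4.38 to 401 and 227 CPM (log2 change 6.05 ± 0.51 SE, edgeR adjusted p = 1.5e-06). Its partner Scnn1g rose from 6.35, 1.68, 3.56 and 3.004 to 297 and 254 CPM (log2 change 6.22 ± 0.41 SE, edgeR adjusted p = 1.31e-07). Aqp3, the basolateral water channel of principal cells, rose from 4.16, 2.59, 3.78 and 3.33 to 205 and 94.9 CPM (log2 change 5.42 ± 0.34 SE, edgeR adjusted p = 8.5e-08). Wnt7b, a ligand of the collecting duct, rose from 7.16, 3.96, 7.33 and 7.80 to 171 and 157 CPM (log2 change 4.63 ± 0.67 SE, edgeR adjusted p = 0.000275). High libraries exceed low ones by far in each. Of the genes of the bud tip, the Gdnf receptor Ret was at 2.31, 2.13, 1.67 and 3.41 CPM in mutant low and 10.2 and 4.43 CPM in mutant high libraries (log2 change 1.61 ± 0.42 SE, edgeR adjusted p = 0.00931) and lost its call without mutant high replicate 1 (0.281). Wnt11, a tip ligand named after its values were seen, was called higher (log2 change 1.02 ± 0.33 SE, edgeR adjusted p = 0.0298) and lost the call without mutant high replicate 1 (0.0987), mutant high replicate 2 (0.134), mutant low replicate 2 (0.0537), mutant low replicate 3 (0.0645) and mutant low replicate 4 (0.062). The Fgf and Gdnf target factors Etv4 (log2 change -1.41 ± 0.34 SE, edgeR adjusted p = 0.00598) and Etv5 (log2 change -1.15 ± 0.25 SE, edgeR adjusted p = 0.00282), which progenitors also express, were the 2 called lower. Both lost the call without mutant high replicate 1, at an edgeR adjusted p of 0.0666 and 0.0569. Sox9 (0.83, edgeR adjusted p = 0.116) and Hoxb7 (-0.04, edgeR adjusted p = 0.914) were not called.

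A few genes known from urothelium, stratified epithelium and mesothelium were higher in mutant high cells. They were named from their values, with no list for these tissues set beforehand. They therefore give no share to set beside the 19.01% of all loci called higher, and mesothelium is represented by Msln alone. Upk1b, a plaque protein of the bladder lining, was at 0.231, 0, 0.333 and 0.244 CPM in the mutant low libraries and 43.8 and 40.6 CPM in the mutant high libraries (log2 change 7.51 ± 0.62 SE, edgeR adjusted p = 6.96e-07). It was at 0.702, 0, 0.865 and 0.903 CPM in control low and 0 and 0.284 CPM in control high libraries. Msln, mesothelin (mm9 chromosome 17, 25885557 to 25891323, minus strand), went from 0.462, 0.305, 0.555 and 0.244 to 54.2 and 54.5 CPM (log2 change 7.08 ± 0.39 SE, edgeR adjusted p = 7.91e-08). Controls held 0.234, 0.544, 0.432 and 0.164 CPM in low and 0 and 0 CPM in high libraries. The 2 mutant high libraries stand above all 10 others in both genes. Upk3a (log2 change 5.32 ± 1.09 SE, edgeR adjusted p = 0.00315) and the basal keratin Krt5 (log2 change 4.87 ± 0.82 SE, edgeR adjusted p = 0.000655) were also higher, and Krt17, at 0 in the low libraries, reached 4.06 and 10.5 CPM. Msln and Krt17 met the naming rule, and Upk1b, Upk3a and Krt5 were named after their values were seen.

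Some markers of immune, stromal, endothelial and red blood cells moved with the comparison. Of 10 immune genes tested, 8 were called higher in mutant high cells (80.00%) and none lower. Over all loci 19.01% were higher and 13.2% lower. Together the 10 held 10.6 to 17.1 CPM in mutant low and 115 and 290 CPM in mutant high libraries. Csf1r, the macrophage growth factor receptor, stood at 5.89, 6.10, 6.44 and 4.38 CPM in the mutant low libraries and 53.0 and 104 CPM in the mutant high libraries (log2 change 3.78 ± 0.28 SE, edgeR adjusted p = 3.2e-07). Tyrobp, a myeloid signalling adaptor, went from 4.27, 6.10, 4.22 and 1.95 to 28.9 and 94.4 CPM (log2 change 3.92 ± 0.47 SE, edgeR adjusted p = 1.99e-05). Laptm5, of blood cell lysosomes, went from 4.27, 2.90, 1.89 and 1.62 to 17.2 and 59.2 CPM (log2 change 3.85 ± 0.46 SE, edgeR adjusted p = 1.64e-05). The pan-leukocyte gene Ptprc was at 0.346, 0.152, 0.555 and 0.650 CPM in mutant low and 3.77 and 4.68 CPM in mutant high libraries (log2 change 3.18 ± 0.54 SE, edgeR adjusted p = 0.000441). Cd68, a macrophage lysosomal protein, was at 0.808, 0.152, 1.22 and 0.812 and 4.64 and 9.35 CPM (log2 change 3.14 ± 0.52 SE, edgeR adjusted p = 0.000302). Mutant high replicate 2 held more than replicate 1 for all 5. Of 16 immune genes listed, 6 did not pass the filter on low counts.

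Stromal genes rose in part: 8 of 15 tested were called higher (53.3%) and none lower, beside 19.01% and 13.2% over all loci. Their summed level was 309 to 538 CPM in mutant low and 802 and 806 CPM in mutant high libraries. There were 5 higher without mutant high replicate 2. The fibrillar collagen Col1a2 went from 25.5, 18.9, 9.11 and 9.99 to 77.9 and 103 CPM (log2 change 2.51 ± 0.36 SE, edgeR adjusted p = 0.000101). The matrix protein Postn went from 10.2, 8.84, 10.1 and 11.8 to 58.6 and 102 CPM (log2 change 2.96 ± 0.30 SE, edgeR adjusted p = 3.69e-06), and the proteoglycan Lum from 2.08, 2.29, 3.56 and 2.19 to 26.3 and 82.2 CPM (log2 change 4.41 ± 0.50 SE, edgeR adjusted p = 1.09e-05). The pericyte receptor Pdgfrb (0.33, edgeR adjusted p = 0.479) and Dlk1 (-0.02, edgeR adjusted p = 0.975) were not called. Foxd1, the factor that defines cortical stroma, was not matched to a locus. Leaving out mutant high replicate 2, 5 stromal genes were called higher.

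Endothelial genes showed no common direction, with 1 of 13 called higher (7.69%) and 3 lower (23.1%), beside 19.01% and 13.2% over all loci. Their summed level was 124 to 194 CPM in mutant low and 111 and 128 CPM in mutant high libraries. Esam, a junction protein, was higher (log2 change 2.39 ± 0.52 SE, edgeR adjusted p = 0.00267). Pecam1 (1.11, edgeR adjusted p = 0.0796) and Egfl7 (-0.40, edgeR adjusted p = 0.48) were not called. Cldn5 (-0.80, edgeR adjusted p = 0.0358), Plvap (-1.70, edgeR adjusted p = 0.0265) and Sox18 (-1.55, edgeR adjusted p = 0.0491) were lower. The calls of these 3 were lost without mutant high replicate 1 (edgeR adjusted p = 0.0566, 0.109 and 0.123) and without mutant high replicate 2 (0.222, 0.151 and 0.224). Cldn5 also lost it without mutant low replicate 1 or 3 (0.0584 and 0.0731). The same held for Plvap without mutant low replicate 3 or 4 (0.054 and 0.0611) and Sox18 when any 1 of 8 libraries was left out, up to 0.224. Of 4 red blood cell genes tested, Hba-a1, an alpha globin, was at 8.89, 6.25, 1.11 and 1.71 CPM in mutant low and 6.38 and 13.05 CPM in mutant high libraries (log2 change 1.13 ± 0.73 SE, edgeR adjusted p = 0.267). Car2, a carbonic anhydrase that kidney epithelium also expresses (log2 change 6.20 ± 0.81 SE, edgeR adjusted p = 5.7e-05), and Epb42 (log2 change 7.59 ± 0.57 SE, edgeR adjusted p = 3.35e-07) were higher. Slc25a37 was lower (log2 change -0.82 ± 0.28 SE, edgeR adjusted p = 0.0363) and lost the call without mutant high replicate 1 (0.117), mutant high replicate 2 (0.169), mutant low replicate 2 (0.0717) and mutant low replicate 4 (0.0571). What part immune, stromal or other cells have in the changes of the tubule and progenitor lists was not tested.

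About as many cell cycle genes fell as did not pass the test, and none rose. Of 33 tested, 17 were called lower (51.5%) and none higher, beside 13.2% lower and 19.01% higher over all loci. The median log2 fold change was -1.04. Among the genes called lower were subunits of the replicative helicase. Mcm5 was at 635, 672, 986 and 1019 CPM in the mutant low libraries and 126 and 186 CPM in the mutant high libraries (log2 change -2.41 ± 0.38 SE, edgeR adjusted p = 0.000199). Mcm6 went from 409.7, 510.4, 1099.5 and 810.3 to 80.1 and 171 CPM (log2 change -2.49 ± 0.49 SE, edgeR adjusted p = 0.00131), and Mcm4 from 595, 678, 822 and 748 to 176 and 334 CPM (log2 change -1.48 ± 0.30 SE, edgeR adjusted p = 0.00152). Every high library lies below every low one for these 3, and mutant high replicate 1 is the lower of the 2. The same order holds for Cdk1, the mitotic kinase, at 368 and 710.0 CPM in high and 860.5, 1103, 1497 and 975 CPM in low libraries (log2 change -1.04 ± 0.32 SE, edgeR adjusted p = 0.024). Cdk1 lost its call without mutant high replicate 1 (0.243) and mutant low replicate 3 (0.05). The mitotic ubiquitin enzyme Ube2c (log2 change -0.77 ± 0.24 SE, edgeR adjusted p = 0.0248) lost its call without mutant high replicate 1 (0.146), mutant high replicate 2 (0.0771) and mutant low replicate 2 (0.0535). Rrm2, the ribonucleotide reductase subunit and most abundant of the list, was at 1488, 2155, 2937 and 2602 CPM in mutant low and 628 and 1969.6 CPM in mutant high libraries (log2 change -0.82 ± 0.40 SE, edgeR adjusted p = 0.129). It passed the test without mutant high replicate 2 (0.00718). The cyclin Ccnb2 did not pass (log2 change -0.82 ± 0.32 SE, edgeR adjusted p = 0.062) but did without control low replicate 4 (0.0424) and mutant low replicate 1 (0.038). The replication-dependent histones Hist1h2ab (log2 change -3.70 ± 0.63 SE, edgeR adjusted p = 0.000615), Hist1h2bl (log2 change -3.62 ± 0.54 SE, edgeR adjusted p = 0.000144) and Hist1h3a (log2 change -3.17 ± 0.76 SE, edgeR adjusted p = 0.00563), which are not on the list, were among the 15 largest falls. Without mutant high replicate 1 the list had 9 genes called lower, so the count rests on that library.

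Genes of the Polycomb complexes were called in both directions. Of 11 PRC2 genes, 1 was called lower (9.09%) and 1 higher (9.09%), beside 13.2% lower and 19.01% higher over all loci. Their median log2 fold change was -0.49. Rbbp4, a histone chaperone shared with other complexes, went from 156, 163, 118 and 161 to 59.5 and 45.3 CPM (log2 change -1.51 ± 0.26 SE, edgeR adjusted p = 0.000454). Phf1, an accessory reader, was higher (log2 change 0.86 ± 0.26 SE, edgeR adjusted p = 0.0216) and lost the call without mutant high replicate 1 (0.143), mutant high replicate 2 (0.0634) and mutant low replicate 4 (0.0593). Of 17 PRC1 genes tested, 3 were lower (17.6%) and 2 higher (11.8%), near the shares over all loci. The chromodomain gene Cbx2 went from 33.7, 17.5, 55.3 and 41.3 to 10.5 and 9.85 CPM (log2 change -1.86 ± 0.41 SE, edgeR adjusted p = 0.00306). The others were Pcgf1 (-0.94, edgeR adjusted p = 0.0169) and Kdm2b (-1.03, edgeR adjusted p = 0.0203), both lower, and Cbx7 (1.40, edgeR adjusted p = 0.0211) and Pcgf5 (1.49, edgeR adjusted p = 0.0383), both higher. Each of these 4 lost its call without mutant high replicate 1 (edgeR adjusted p = 0.119, 0.104, 0.11 and 0.0795) and without mutant high replicate 2 (0.0565, 0.102, 0.0709 and 0.22). Pcgf5 also lost it without mutant low replicate 1, 2 or 3 (0.0554, 0.0647 and 0.0768).

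Developmental regulators that Polycomb keeps silent in other tissues were below the filter in 15 of 30 cases. Of the 15 tested, 3 were called higher (20.00%) and 2 lower (13.3%), close to the shares over all loci (19.01% and 13.2%). Summed, the 15 held 346 to 620.5 CPM in mutant low and 308 to 466 CPM in control low libraries. Six3 alone held 159 to 428 CPM of the mutant low sums, so these follow 1 gene in large part. The 15 together held 229 and 195 CPM in mutant high and 42.4 and 18.7 CPM in control high libraries. Cdkn2b, a cell cycle inhibitor of the Ink4 locus, went from 4.62, 2.59, 7.44 and 5.60 to 34.1 and 23.9 CPM (log2 change 2.50 ± 0.44 SE, edgeR adjusted p = 0.000513). Tbx3 (log2 change 1.62 ± 0.44 SE, edgeR adjusted p = 0.012) and Gata6 (log2 change 1.73 ± 0.45 SE, edgeR adjusted p = 0.00829) were also higher, and both lost the call without mutant high replicate 1, at an edgeR adjusted p of 0.172 and 0.101. The homeobox gene Six3 was lower, at 159, 195, 428 and 275 CPM in mutant low and 41.5 and 36.1 CPM in mutant high libraries (log2 change -2.77 ± 0.46 SE, edgeR adjusted p = 0.000379). Its change from low to high cells was more positive in mutant than in control (difference 2.23 ± 0.59 SE, edgeR adjusted p = 0.029). That call was lost without control high replicate 2, mutant high replicate 1 or mutant high replicate 2. Nkx2-1, the lung and forebrain factor, was at 71.6, 28.04, 54.1 and 47.3 CPM in mutant low and 24.1 and 9.97 CPM in mutant high libraries (log2 change -1.56 ± 0.45 SE, edgeR adjusted p = 0.0185). It lost the call without mutant high replicate 2 (0.176).

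Hox genes fell more often than they rose. Of 31 tested, 12 were called lower (38.7%) and 1 higher (3.23%), beside 13.2% lower and 19.01% higher over all loci. The median log2 fold change was -0.83. There were 7 and 6 lower without mutant high replicate 1 and 2 in turn. Hoxd11, which acts in the progenitor cap, went from 122.95, 102, 268 and 310.0 to 41.2 and 22.3 CPM (log2 change -2.66 ± 0.55 SE, edgeR adjusted p = 0.00246). Hoxc9 went from 175, 159.6, 299 and 301 to 70.5 and 52.9 CPM (log2 change -1.92 ± 0.35 SE, edgeR adjusted p = 0.000819). Hoxc10 went from 109.9, 110.5, 155 and 112 to 44.7 and 31.5 CPM (log2 change -1.68 ± 0.28 SE, edgeR adjusted p = 0.000321). Groups do not overlap for these 3. Hoxd8 was the single gene called higher, at 4.16, 4.72, 0.667 and 2.76 CPM in mutant low and 17.4 and 13.05 CPM in mutant high libraries (log2 change 2.32 ± 0.49 SE, edgeR adjusted p = 0.00227). The count of lower genes was 7 leaving out mutant high replicate 1, 6 leaving out mutant high replicate 2 and 8 leaving out mutant low replicate 4.

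Genes of fatty acid oxidation, the main fuel path of the proximal tubule, rose in part. Of 23 tested, 11 were called higher (47.8%) and none lower, beside 19.01% and 13.2% over all loci. The median log2 fold change was 0.78. Acadm, the medium chain dehydrogenase, went from 49.6, 67.4, 85.8 and 88.1 to 329 and 290.0 CPM (log2 change 2.09 ± 0.29 SE, edgeR adjusted p = 6.99e-05). Etfdh, which passes its electrons on, went from 91.3, 84.9, 133 and 115 to 249 and 253 CPM (log2 change 1.24 ± 0.25 SE, edgeR adjusted p = 0.00158). Cpt1a, the entry step of the mitochondrion, was at 72.0, 71.9, 154 and 105 CPM in mutant low and 169.8 and 99.8 CPM in mutant high libraries and not called (log2 change 0.42 ± 0.32 SE, edgeR adjusted p = 0.341). Of 18 glycolysis genes 4 were called higher (22.2%) and 3 lower (16.7%), close to the shares over all loci (19.01% and 13.2%). Aldolase Aldoa (log2 change 1.43 ± 0.35 SE, edgeR adjusted p = 0.00584) and the platelet phosphofructokinase Pfkp (log2 change 2.47 ± 0.29 SE, edgeR adjusted p = 1.49e-05) were higher. So were Aldoc (1.38, edgeR adjusted p = 0.00804) and Eno2 (2.39, edgeR adjusted p = 0.0062). Lower were hexokinase Hk2, from 73.9, 78.3, 71.9 and 73.6 to 29.0 and 28.4 CPM (log2 change -1.37 ± 0.22 SE, edgeR adjusted p = 0.000293), as were the muscle phosphofructokinase Pfkm (log2 change -1.09 ± 0.27 SE, edgeR adjusted p = 0.0066) and the pyruvate kinase Pkm (log2 change -1.17 ± 0.38 SE, edgeR adjusted p = 0.0299). Ldha, lactate dehydrogenase, was not called (log2 change -0.69 ± 0.32 SE, edgeR adjusted p = 0.113) and passed without mutant low replicate 1 (0.0366). Without mutant high replicate 1 the calls of Aldoa (0.0502), Aldoc (0.0565), Eno2 (0.0809) and Pkm (0.174) were lost. So were those of Pkm (0.0899) and Pfkm (0.0941) without mutant high replicate 2. Pkm also lost it without mutant low replicate 3 (0.0659) or 4 (0.066).

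Early response genes were higher in part in mutant high cells: 9 of 20 tested were called higher (45.00%) and 1 lower (5.000%). Over all loci these shares were 19.01% and 13.2%. The median log2 fold change of the list was 0.92. The phosphatase Dusp1, which ends kinase signals, went from 138, 175, 446 and 258 to 761 and 1079.7 CPM (log2 change 1.86 ± 0.41 SE, edgeR adjusted p = 0.00331). Zfp36, which speeds the decay of short-lived messages, went from 64.3, 49.5, 51.7 and 81.4 to 403 and 222 CPM (log2 change 2.34 ± 0.26 SE, edgeR adjusted p = 9.54e-06). The factor Junb went from 153, 120.1, 233 and 147 to 459.8 and 313 CPM (log2 change 1.24 ± 0.26 SE, edgeR adjusted p = 0.00185). The 2 most abundant members, Egr1 (-0.57, edgeR adjusted p = 0.287) and Ier2 (0.13, edgeR adjusted p = 0.77), overlap between the groups and were not called. Myc, the growth factor response gene, was lower, at 36.9, 21.5, 92.9 and 68.0 CPM in mutant low and 23.8 and 13.7 CPM in mutant high libraries (log2 change -1.55 ± 0.53 SE, edgeR adjusted p = 0.0383), with groups that overlap. It lost the call without control high replicate 2 (0.0503), mutant high replicate 1 (0.075), mutant high replicate 2 (0.247), mutant low replicate 3 (0.0802) and mutant low replicate 4 (0.0761). When mutant high replicate 1 was left out, 6 of the 20 were called higher.

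Feedback targets of Wnt, Notch, Fgf and Bmp signals fell more often than they rose. Of 26, 11 were called lower (42.3%), Etv4 and Etv5 among them, and 2 higher (7.69%). Over all loci 13.2% were lower and 19.01% higher. Dusp6, an Fgf target, went from 448, 416, 465 and 655 to 259 and 210.4 CPM (log2 change -1.08 ± 0.33 SE, edgeR adjusted p = 0.0208). Id1, a Bmp target, went from 290.4, 315, 762 and 706 to 196 and 103 CPM (log2 change -1.80 ± 0.53 SE, edgeR adjusted p = 0.0198). The Wnt target Nkd1 was not called (log2 change -0.54 ± 0.28 SE, edgeR adjusted p = 0.164). Higher were 2 secreted Wnt inhibitors, Sfrp1, from 31.9, 39.8, 22.3 and 24.4 to 73.4 and 76.7 CPM (log2 change 1.34 ± 0.30 SE, edgeR adjusted p = 0.00329), and Dkk1 (log2 change 1.58 ± 0.54 SE, edgeR adjusted p = 0.0365). Dusp6 lost its call without mutant high replicate 1 (0.0679), mutant high replicate 2 (0.155) and mutant low replicate 4 (0.053), and Id1 without mutant high replicate 2 (0.166). Dkk1 lost it without mutant high replicate 2 (0.345), mutant low replicate 2 (0.0616), mutant low replicate 3 (0.0607) and mutant low replicate 4 (0.0618). Without mutant high replicate 2 the list had 6 genes called lower.

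Among imprinted growth genes 4 of 13 were called lower (30.8%) and 2 higher (15.4%), beside 13.2% and 19.01% over all loci. There were 2 and 1 lower without mutant high replicate 1 and 2 in turn. Mest, a gene of mesoderm expressed from the paternal copy, was at 3631, 4777, 3815 and 4362 CPM in mutant low and 1419 and 1598 CPM in mutant high libraries (log2 change -1.46 ± 0.40 SE, edgeR adjusted p = 0.013). Grb10, an inhibitor of insulin-type receptors, went from 760.0, 700.2, 921 and 634 to 237 and 215 CPM (log2 change -1.74 ± 0.27 SE, edgeR adjusted p = 0.000195). The growth factor Igf2 went from 767, 1604, 943 and 968 to 409 and 248 CPM (log2 change -1.71 ± 0.39 SE, edgeR adjusted p = 0.00388). Gnas was the other gene called lower (log2 change -1.04 ± 0.33 SE, edgeR adjusted p = 0.0265). The noncoding RNA Meg3 rose from 4.04, 2.74, 0.9999 and 1.38 to 21.4 and 17.6 CPM (log2 change 3.10 ± 0.59 SE, edgeR adjusted p = 0.00115). Zim1, a zinc finger gene, rose from 1.62, 0.914, 1.44 and 0.568 to 4.73 and 2.83 CPM (log2 change 1.74 ± 0.49 SE, edgeR adjusted p = 0.0138). Mest lost its call without mutant high replicate 1 (0.104) and mutant high replicate 2 (0.0738), and Igf2 without mutant high replicate 2 (0.0687). Gnas lost it without mutant high replicate 1 (0.178), mutant high replicate 2 (0.0736), mutant low replicate 2 (0.0502) and mutant low replicate 3 (0.052), and Zim1 without mutant high replicate 1 (0.186).

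By the same rule as for the rises, the 15 largest falls held Gdnf, the 3 histones and 11 further genes. Cdh22, a type II cadherin, went from 137, 174, 236 and 213 to 10.05 and 8.25 CPM (log2 change -4.37 ± 0.41 SE, edgeR adjusted p = 2.13e-06). C1ql4 (log2 change -4.25 ± 0.51 SE, edgeR adjusted p = 2.05e-05), the serotonin-gated channel Htr3a (log2 change -3.27 ± 0.58 SE, edgeR adjusted p = 0.000641), the microfibril protein Mfap4 (log2 change -3.15 ± 0.54 SE, edgeR adjusted p = 0.000606) and the chemokine receptor Cxcr4 (log2 change -3.03 ± 0.44 SE, edgeR adjusted p = 0.000102) had every high library below every low one. Il33, a nuclear cytokine, had the deepest fall, but the low libraries ranged widely, at 427, 71.3, 132 and 821 CPM against 7.92 and 5.54 CPM (log2 change -5.75 ± 1.31 SE, edgeR adjusted p = 0.00779). Col2a1, the cartilage collagen, was at 12.5, 75.4, 13.1 and 58.5 CPM in mutant low and 1.55 and 1.60 CPM in mutant high libraries (log2 change -4.65 ± 1.08 SE, edgeR adjusted p = 0.00757). Mta1 (-4.04, edgeR adjusted p = 0.00325), Lsm14b (-3.03, edgeR adjusted p = 0.000285), Gm7534 (-4.07, edgeR adjusted p = 0.0069) and Mettl17 (-3.63, edgeR adjusted p = 0.0376) complete the set. Calls were lost for Il33 without mutant high replicate 1 (0.0569) and mutant high replicate 2 (0.0684), and Col2a1 without mutant high replicate 1 (0.075) and mutant high replicate 2 (0.0691). Gm7534 lost it without mutant high replicate 1 (0.0524), and Mettl17 without control low replicate 1 (0.056), control low replicate 2 (0.0536), mutant high replicate 1 (0.14), mutant high replicate 2 (0.192), mutant low replicate 3 (0.0669) and mutant low replicate 4 (0.0684).

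The difference between high and low cells in the mutant was then set against that in control kidneys, by a test of the difference itself in the same fit. The difference was more positive in the mutant at 1002 loci (7.29% of those tested) and more negative at 420 (3.05%). With DESeq2 these counts were 1055 and 720. Removing the trend on locus span gave 795 and 570, so the balance of the 2 directions differs between these fits. The median difference over all loci was 0.15 with TMM, 0.07 with RLE scaling and 0.04 without the span trend. Single values are to be read against it. Control high libraries carried 4.51% and 10.3% of fragments on chromosome M, the mutant libraries 0.494% to 1.68%. Leaving out control high replicate 2 gave 359 and 213, control high replicate 1 gave 604 and 231, and mutant high replicate 2 gave 529 and 134. Of the 2613 loci called higher in mutant high cells, 2024 were also called higher in control high cells (25.3% of all loci were), and of the 1814 called lower, 1497 were lower in control (27.05% of all loci were).

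The progenitor list had the most such genes of the 21 lists. Of its 28 genes, 13 had a more positive and 1 a more negative difference in the mutant, beside 7.29% and 3.05% over all loci. The median log2 fold change of high against low cells was -1.68 in mutant and -3.97 in control. Six2 had 1967, 1587, 1359.6 and 1897 CPM in control low and 63.4 and 16.7 CPM in control high libraries. Mutant low libraries thus lie below control low ones and mutant high libraries above control high ones, and the log2 fold change was -2.91 in mutant and -5.40 in control (difference 2.49 ± 0.54 SE, edgeR adjusted p = 0.011). Eya1 (difference 2.86 ± 0.72 SE, edgeR adjusted p = 0.0237), Rspo1 (difference 3.33 ± 0.53 SE, edgeR adjusted p = 0.00199) and Wnt4 of the early nephron (difference 2.35 ± 0.43 SE, edgeR adjusted p = 0.00415) had differences of the same sign. Without mutant high replicate 2 the call of Six2 was lost (edgeR adjusted p = 0.0537), and that of Eya1 without mutant high replicate 2 (0.107) and mutant low replicate 1 (0.0516). Cited1 stood at 35.0, 31.0, 21.4 and 19.5 CPM in control low and 3.33 and 4.54 CPM in control high libraries, and the mutant low libraries lie near the latter (difference 2.91 ± 0.73 SE, edgeR adjusted p = 0.0212). The call for Cited1 was lost without control high replicate 1 (0.106), control high replicate 2 (0.0886) and mutant high replicate 2 (0.0868). Of 33 cell cycle genes 8 had a more positive difference, beside 7.29% of all loci. Among these 8 was Ube2c, at 1.25 and 1.42 CPM in control high libraries (difference 4.003 ± 0.40 SE, edgeR adjusted p = 0.00048).

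Genes of the ureteric list gave 7 more positive differences and 1 more negative of 21, beside 7.29% and 3.05% over all loci. Ret had 1.52, 0.951, 2.27 and 1.97 CPM in control low and 0.416 and 0.284 CPM in control high libraries and was higher in mutant high cells (difference 3.81 ± 0.85 SE, edgeR adjusted p = 0.0117). Wnt11 (difference 2.94 ± 0.51 SE, edgeR adjusted p = 0.00339), Sox9 (difference 2.61 ± 0.60 SE, edgeR adjusted p = 0.0146), Etv4 (difference 2.69 ± 0.47 SE, edgeR adjusted p = 0.00339) and Etv5 (difference 1.79 ± 0.34 SE, edgeR adjusted p = 0.00539) were others of the list. The calls were lost for Ret without control high replicate 1 (0.0567) and control high replicate 2 (0.0796) and for Sox9 without control high replicate 2 (0.103) and mutant high replicate 2 (0.0512). Upk1b, also on the list, had the widest difference of these (difference 9.80 ± 1.24 SE, edgeR adjusted p = 0.000688). For Msln, at 0 in both control high libraries, the difference was called too (edgeR adjusted p = 0.00048). Ube2c, Msln, Cdh13, Phlda3, Sulf1 and Meis2 shared the smallest adjusted p on this side. Cdh13, a cadherin without a membrane span, was at 20.9, 17.7, 20.6 and 19.9 CPM in control low and 1.04 and 0.851 CPM in control high libraries. The mutant held 8.43, 7.77, 13.4 and 12.3 CPM in low and 14.1 and 11.3 CPM in high libraries (difference 4.63 ± 0.50 SE, edgeR adjusted p = 0.00048). High and low libraries are apart in control and overlap in the mutant. Phlda3, a target of p53, was at 59.4, 55.2, 65.3 and 66.3 CPM in control low and 7.49 and 6.52 CPM in control high libraries, and at 121, 125, 71.1 and 84.9 CPM in mutant low and 137 and 122 CPM in mutant high libraries (difference 3.499 ± 0.38 SE, edgeR adjusted p = 0.00048). Meis2 (difference 3.18 ± 0.35 SE, edgeR adjusted p = 0.00048) and Sulf1 (difference 3.62 ± 0.40 SE, edgeR adjusted p = 0.00048) had differences of the same sign.

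Few genes of the proximal tubule list had a called difference. Of the 40 proximal tubule genes, 1 (Cldn2) had a more positive and 2 a more negative difference, beside 7.29% and 3.05% over all loci. The 2 more negative ones had an edgeR adjusted p of 0.00698 and 0.00438. The medians were 6.01 in mutant and 5.63 in control. Slc22a6 was at 25.6, 50.3, 10.9 and 46.7 CPM in control low and 2374 and 1390.4 CPM in control high libraries, so each mutant library holds less than any control library of the same title. For Cldn2 the difference was called (difference 2.78 ± 0.73 SE, edgeR adjusted p = 0.0276), and it was lost without control high replicate 1 (0.0653), control high replicate 2 (0.125), mutant high replicate 1 (0.071), mutant high replicate 2 (0.0666), mutant low replicate 3 (0.0507) and mutant low replicate 4 (0.0667). Fatty acid oxidation gave 6 more negative differences of 23 and none more positive, beside 3.05% and 7.29% over all loci. The list's median was 0.78 in mutant and 2.37 in control. Acadm was among the 6, with 1852 and 1482 CPM in control high libraries (difference -1.58 ± 0.43 SE, edgeR adjusted p = 0.0309). The call for Acadm was lost without control low replicate 1 (0.0511), control high replicate 1 (0.104), control high replicate 2 (0.0599), mutant high replicate 1 (0.0679), mutant high replicate 2 (0.125) and mutant low replicate 4 (0.057).

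Apart from Jarid2, the smallest adjusted p on the negative side were at Sall3 (difference -4.42 ± 0.50 SE, edgeR adjusted p = 0.000486), Car14 (difference -2.83 ± 0.34 SE, edgeR adjusted p = 0.000566) and Cpox (difference -2.36 ± 0.30 SE, edgeR adjusted p = 0.000688). Jarid2 was passed over because it is listed at 0 in all 4 control low libraries. On the positive side Msln was kept although listed at 0 in both control high libraries, so the choice differs between the sides. Sall3, a zinc finger factor, was at 1.64, 1.49, 2.70 and 1.81 CPM in control low and 27.9 and 46.8 CPM in control high libraries, but at 17.8, 10.97, 11.6 and 12.9 CPM in mutant low and 14.2 and 9.72 CPM in mutant high libraries. Its groups are apart in control and overlap in the mutant. Of the early nephron genes, Papss2 had a smaller rise in the mutant than in control (difference -3.11 ± 0.44 SE, edgeR adjusted p = 0.00122).

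**Figure D4:**
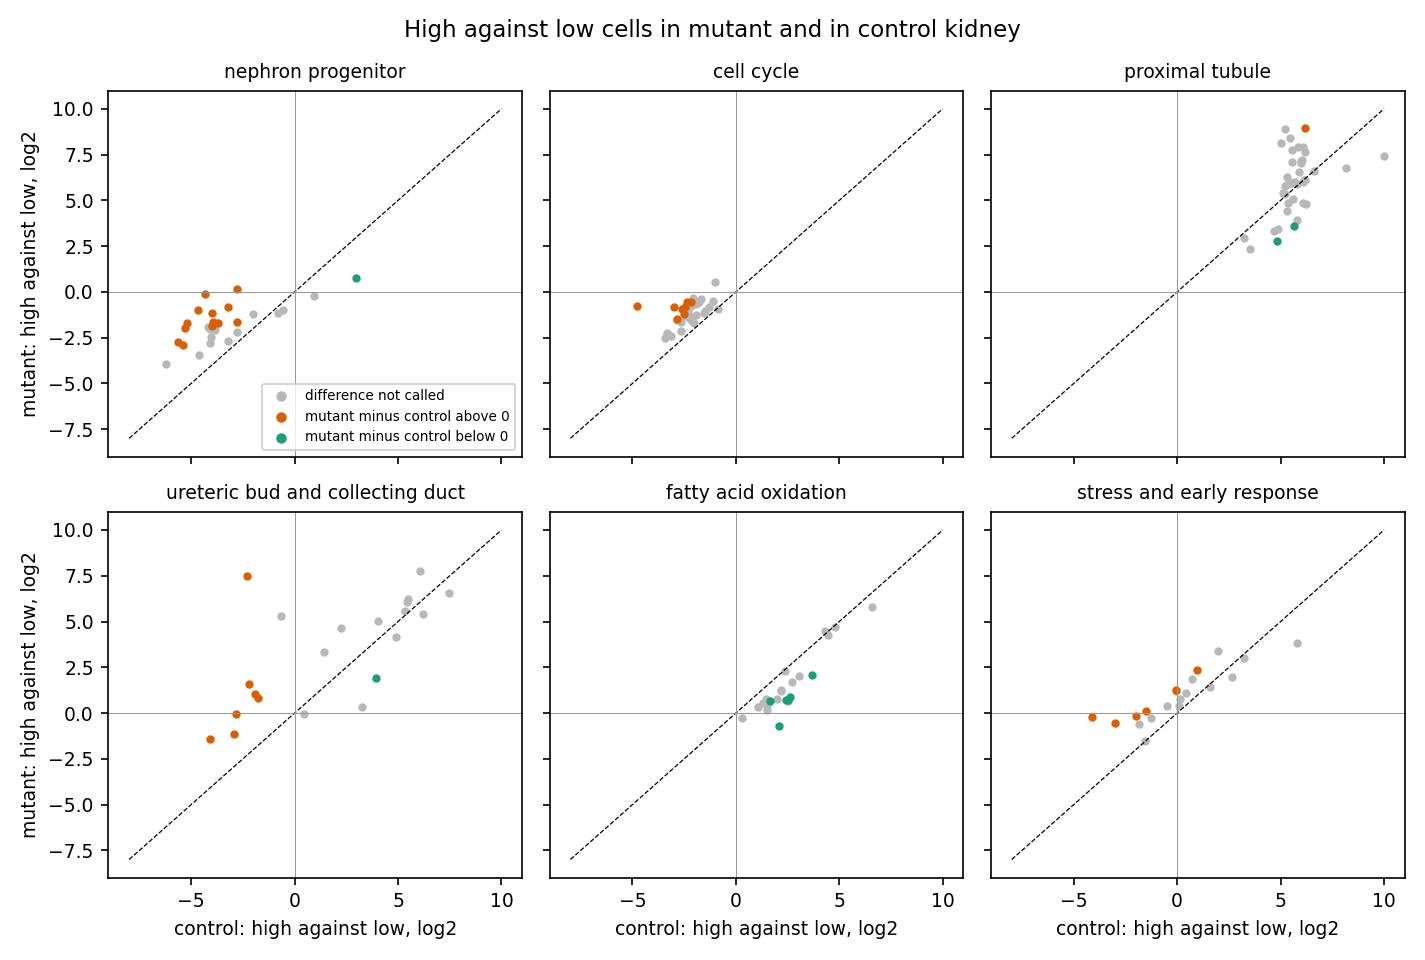
Each point is 1 tested gene of the list named above the panel, at its log2 fold change of high against low cells in control (x axis) and in mutant kidney (y axis), with equal values on the dashed line. Orange and green points had a difference above or below 0 at an adjusted p under 0.05, and 13 of 28 nephron progenitor genes are orange against 1 of 40 proximal tubule genes.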

How the data were processed

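RNA of Six2-expressing, flow-sorted P0 kidney cells was amplified with a low-input SMART-Seq v4 kit, per the labels' protocols. The values are estimated counts, the fragments per transcript that Cuffdiff2 gave the authors, and are raw per the file headers; the deposited table has 55418 rows, and 303 rows without a position held 0 fragments. The submitters' processing notes also name Bowtie2, HTSeq, DESeq2 and mm9, with no version or role, and how fragments with several alignments were shared out is not given in the sources used here.

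Transcripts overlapping on one strand were summed to 26699 loci and rounded. Loci passing filterByExpr (13749) were fitted for all 12 libraries in edgeR 4.0.16 (R 4.3.3; TMM, robust quasi-likelihood F test, Benjamini-Hochberg adjustment, threshold 0.05), with limma 3.58.1 and DESeq2 1.42.0 as alternatives. Standard errors come from the F statistic. The fit was tested on simulated counts.

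No mm9 annotation was used. Names come from GENCODE M21 (GRCm38): a row was matched to the same-strand transcript with the largest reciprocal span overlap, at least 0.5, after the local offset between builds held by at least 3 of the 12 nearest exact-span matches on each side. Of the rows 88.3% were named, against at most 6.88% under a false offset. Of 172 genes printed, 162 had an overlap of at least 0.9. For Hnf4a, Aldoc, AC100212.9, C1ql4, Hba-a1, Hoxd8, Lhx1, Wnt4 and Slc10a2 it was 0.691 to 0.886, and for Vegfa the largest row was unnamed. Pla2g7, Mecom, Slc3a1, S100g, Plvap, Pfkm and Pfkp overlap a locus on the other strand with at least 10% of their fragments, and without strand the 2 cannot be told apart. Locus positions are mm9 as deposited.

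Groups follow the titles. Genes were named by rule: the 15 largest rises and falls among named loci with adjusted p under 0.05, at least 5 CPM and groups that do not overlap; the most abundant called and uncalled members of each list; a set of kidney markers; and the 5 smallest adjusted p for the difference with control on each side. Not every gene the rule gave is described, some are not reported here, and others were chosen after their values were seen, among them Osr1, Upk1b, Upk3a, Krt5, Wnt11, Slc3a1, Wfdc2 and the genes of the promoter search. The comparison, lists and tests were chosen with earlier results of these data known. The counting interval for Afp is at 95% and covers counting error only.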

Additional observations from a re-analysis of the deposited data

Results flagged for a closer look

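For 10 of 172 genes, 1 of the 4 mutant low libraries stood apart from the other 3 by more than Dixon's 95% limit. Chance alone gives such a gap in about 1 in 20 groups. The library apart was the highest for Ezh2 (229 CPM), Suz12 (27.0 CPM), Papss2 (65.5 CPM), Lrp2 (6.93 CPM), Afp (0.0812 CPM), Etv4 (573 CPM), Lum (3.56 CPM) and Hoxc10 (155 CPM), and the lowest for Rbbp4 (118 CPM) and Wnt7b (3.96 CPM). For Afp the gap is that between 1 fragment and 0.

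For 48 of the 172 genes the difference between high and low cells was itself different in mutant and control kidneys at an edgeR adjusted p under 0.05. Values in brackets are log2, mutant minus control. Among progenitor and early nephron genes they were Six2 (2.49), Eya1 (2.86), Rspo1 (3.33), Wt1 (2.30), Cited1 (2.91), Osr1 (4.21), Pla2g7 (2.42), Fgf9 (-2.21), Wnt4 (2.35) and Papss2 (-3.11). Among tubule and junction genes they were Cldn2 (2.78), Afp (4.64), Sectm1b (2.64) and Cldn7 (-1.67). Among ureteric, urothelial and mesothelial genes they were Ret (3.81), Sox9 (2.61), Etv4 (2.69), Etv5 (1.79), Wnt11 (2.94), Upk1b (9.80), Krt5 (10.03) and Msln (11.60), and where a control group is at 0, as for Msln, the fitted size depends on the prior count. Among stromal genes they were Postn (1.48) and Lum (2.99). Among cell cycle genes they were Mcm4 (1.39), Ccnb2 (1.66) and Ube2c (4.00). Among Polycomb, homeobox and Hox genes they were Ezh2 (1.48), Six3 (2.23) and Hoxc10 (2.03). Among metabolic genes they were Acadm (-1.58) and Hk2 (1.61). Among early response and feedback genes they were Junb (1.29), Zfp36 (1.40), Egr1 (2.44), Ier2 (1.62), Nkd1 (2.73) and Sfrp1 (-2.64). Among imprinted genes they were Mest (2.64), Zim1 (4.32) and Grb10 (1.24). Among the genes named for this difference alone they were Meis2 (3.18), Phlda3 (3.499), Cdh13 (4.63), Sulf1 (3.62), Sall3 (-4.42), Car14 (-2.83) and Cpox (-2.36). Leaving out 1 library at a time, 23 of the 48 genes never lost this call, 21 lost it without control high replicate 2 and 18 without mutant high replicate 2.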

How the results depend on the processing

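The counts of 2613 loci higher and 1814 lower stayed within 1.5 times under RLE or upper quartile scaling, both other filters, DESeq2, limma-voom, removal of the trend on span, chromosomes X, Y and M left out, the 6 mutant libraries alone, and only mutant low replicates 1 and 2 or 3 and 4. With each transcript as a feature 857 were lower, and against a fold of 2 the counts were 1453 and 293. Leaving out 1 library gave 1861 to 2663 higher and 865 to 1901 lower. The cause was not tested, but each transcript splits the fragments of a gene, and the fold of 2 asks for more. Differences from control, 1002 and 420, were 1055 and 720 with DESeq2, 430 and 114 by transcript, and 359 to 1033 and 134 to 449 leaving out 1 library.

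Of the gene lists, a fold of 2 left 10 progenitor, 6 cell cycle, 4 Hox and 1 feedback genes lower, and 5 stromal, 7 fatty acid oxidation and 5 early response genes higher. By transcript, 9 cell cycle, 5 Hox and 3 feedback genes were lower. Leaving out 1 library gave 12 to 21 progenitor, 9 to 20 cell cycle, 6 to 13 Hox and 6 to 15 feedback genes lower, and 5 to 9 stromal, 8 to 13 fatty acid oxidation and 6 to 10 early response genes higher. The proximal tubule count was then 38 to 40 and the epithelial count 23. For Mia2 the log2 change was -0.36 to 3.45 leaving out 1 library. Of the 172 genes, 136 were called and 76 of them kept the call in every alternative.

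Replicates 1 and 2 carry the same numbers in both mutant groups, as do their descriptions (5 and 7), but the labels do not say that a number marks an animal, and there are only 2 such pairs. Deviations correlated at 0.225 and 0.136 within numbers, and with 2 high libraries the values across numbers are the same with the sign turned. With the replicate block, which uses a fit of its own, 2842 loci were higher and 1969 lower, and for the difference from control 738 and 293. Of 20 loop of Henle and distal tubule genes 13 were then higher. Chromosome Y fragments within numbers were 0 and 1 for number 1, and 2101 and 934 for number 2. With 2 high libraries, small changes of low genes were hard to detect, and a gene at 0 may be a failed estimate.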

Other observations

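Gene families gathered by symbol, after results were seen, gave further counts for mutant high against mutant low cells, to be read beside 19.01% higher and 13.2% lower over all loci tested. Of 288 solute carriers (Slc), 134 were called higher and 22 lower, and of 26 cytochromes P450 (Cyp), enzymes of steroid, lipid and drug oxidation, 20 were higher and none lower. All 6 tested UDP glucuronosyltransferases (Ugt), which conjugate drugs and bilirubin, were higher, and their summed level was 2.13 to 10.7 CPM in mutant low and 817 and 856 CPM in mutant high libraries. Of 11 annexins, calcium-dependent membrane binders, 10 were higher. Of 8 major histocompatibility genes (H2), 7 were higher, with a summed level of 252 to 417 CPM in low and 1704 and 978 CPM in high libraries.

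Canonical histones fell, with 10 of 17 lower and none higher and a sum of 442 to 639 CPM in mutant low against 305 and 284 CPM in mutant high libraries. Of 287 zinc finger genes (Zfp), 45 were lower and 16 higher, close to or below the shares over all loci. Of 35 subunits of respiratory complex I (Nduf), none was called higher and 1 lower in the mutant, while 28 were higher in control high cells, and 6 had a called difference, all more negative in the mutant. Of 16 ATP synthase subunits (Atp5), 1 was higher in the mutant and 11 in control, with 4 differences called, all more negative. Over all loci 25.3% were higher in control high cells, and 3.05% had a more negative difference. The share of fragments on chromosome M was also higher in the control high libraries, at 4.51% and 10.3%, than in the mutant high ones, at 1.17% and 0.795%. Its part in these counts was not tested.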
